A study of Mus musculus with 19 samples.

Results

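Glucose enters a cell through a facilitative transporter and is trapped there by a hexokinase, and the 9 genes described here encode these steps: the transporters *Slc2a1*, *Slc2a2*, *Slc2a3*, *Slc2a4* and *Slc2a5* (proteins GLUT1 to GLUT5) and the hexokinases *Hk1*, *Hk2*, *Hk3* and *Hkdc1*. They were taken by symbol from the gene-name columns of the deposited tables and are 9 of 55740 genes in all. All 9 are listed for the 7 tissues and for brown adipose tissue (BAT), and 7 of 13756 genes in the table of inguinal white adipose tissue (iWAT), where *Slc2a2* and *Hkdc1* are not listed.

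RNA-Seq was available for 19 libraries in 2 sets. The first set held 1 library each from brain, heart, small intestine, liver, the tibialis anterior (TA) muscle, BAT and white adipose tissue (WAT) of chow-fed wild-type (WT) C57BL/6J mice, whose age and WAT depot are not given for these libraries. The second set compared male, chow-fed MCK-Musclin mice with WT control mice, 5 months old, both kept in the cold (8 °C) during 1 week, with 3 libraries per genotype from iWAT and 3 per genotype from BAT. MCK-Musclin mice carry a transgene for the secreted muscle protein Musclin (gene symbol *Ostn*) driven by the muscle creatine kinase promoter of the mouse, a promoter of skeletal muscle, on a C57BL/6J background, and which founder line gave these mice is not stated. The question asked of these tissues was whether Musclin made in muscle changes fat tissue in the cold.

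Glucose transporters move sugar down its gradient and differ in where they sit and what they carry. GLUT1 and GLUT3 supply most cells and neurons, GLUT2 serves liver and the basolateral side of the intestine, GLUT4 waits in vesicles of muscle and fat until insulin brings it to the surface, and GLUT5 carries fructose. Hexokinases then add a phosphate to glucose, with *Hk1* known as the form of brain, *Hk2* as that of muscle and fat, *Hk3* as that of blood cells and *Hkdc1* as a less studied relative.

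Values are FPKM, fragments scaled to exon length and to library size, so levels can be set beside each other between genes of unequal length, but how many reads made up each value is unknown. Summed FPKM ran from 393682 to 711437 per library in the 7 tissues, from 364710 to 384104 in iWAT and from 676362 to 720852 in BAT. The 10 most abundant genes took 17.0% to 52.4% of it in the 7 tissues, 11.9% to 13% in iWAT and 48.4% to 51.3% in BAT. Each labelled tissue held its own markers. The 10 general adipocyte markers summed to 15749 FPKM in WAT and 7361 in BAT of the 7 tissues, against 11.9 to 352 in the others. The 4 markers each of heart, liver, intestine and brain summed to 25590, 34332, 1851 and 4883 FPKM in the tissue so labelled, and the 12 fast skeletal muscle markers to 145776 FPKM in TA muscle. *Ostn*, the gene the transgene encodes, had 37.9, 31.6 and 30.3 FPKM in the MCK-Musclin BAT libraries and 0 in each WT BAT library. In iWAT it had 0, 5.17 and 4.21 FPKM in the MCK-Musclin libraries 1, 2 and 3 and 0, 0 and 0.225 in the WT libraries. *Ostn* therefore does not check the label of the iWAT library labelled MCK-Musclin replicate 1, and the differences of *Hk2*, *Hk1*, *Hk3* and *Slc2a4* in iWAT are also given without that library.

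Across the 7 tissues, each hexokinase had its own highest tissue. *Hk1* had 54.8 FPKM in brain, 31.7 in heart, 12.6 in WAT, 7.26 in BAT, 5.88 in intestine, 2.07 in TA muscle and 1.35 in liver, so it was above 1 FPKM in all 7. *Hk2* followed another order, with 56.4 FPKM in TA muscle, 44.4 in heart, 35.1 in BAT, 28.9 in WAT and 14.0 in intestine, and it was low in brain at 0.533 and in liver at 0.388. Heart was thus high in both, TA muscle in *Hk2* and brain in *Hk1*. *Hkdc1* had 75.1 FPKM in intestine, 2.71 in brain and 0.142 in liver, and it is listed at 0 in TA muscle, heart, WAT and BAT. *Hk3* did not pass 3.63 FPKM in any tissue, with that value in WAT, 2.00 in liver, 1.42 in intestine, 0.439 in BAT, 0.228 in heart, 0.219 in brain and 0 in TA muscle.

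The transporters divided the tissues in a comparable way. *Slc2a4*, the insulin-responsive transporter, had 106 FPKM in TA muscle, 72.1 in heart, 69.7 in BAT and 42.4 in WAT, and 1.30 or less in intestine, liver and brain. *Slc2a2* had 88.2 FPKM in liver and 48.7 in intestine, and no other tissue passed 0.361. *Slc2a5*, the fructose transporter, had 44.2 FPKM in intestine, 3.31 in liver, 1.66 in brain and 0.499 in BAT, and it is listed at 0 in TA muscle, heart and WAT. Brain held the highest values of both *Slc2a1*, at 25.3 FPKM, and *Slc2a3*, at 18.2. WAT came next for both, with 5.21 FPKM of *Slc2a1* and 4.53 of *Slc2a3*. *Slc2a1* was nowhere below 1.99 FPKM, whereas *Slc2a3* was below 1 FPKM in the 5 remaining tissues.

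Brain was the highest tissue for 3 of the 9 members (29.7% of 18327 genes with a highest FPKM of at least 1), TA muscle for 2 (5.49%), intestine for 2 (27.1%), liver for 1 (8.18%) and WAT for 1 (20.2%), while heart (3.65%) and BAT (5.72%) were highest for 0. With 1 library per tissue these levels have no replicate check. After adding 0.1 to each FPKM, the highest tissue was more than 2 times the next for 4 of 9 members, beside 43.9% of those 18327 genes. The ratio was 26.7 for *Hkdc1* (intestine over brain), 13 for *Slc2a5* (intestine over liver), 4.78 for *Slc2a1* and 3.96 for *Slc2a3* (brain over WAT). It was 1.81 for *Slc2a2*, 1.77 for *Hk3*, 1.73 for *Hk1*, 1.46 for *Slc2a4* and 1.27 for *Hk2*, and these ratios depended on the scaling of the 7 libraries. For *Hk1* it was 2.96 with TPM and 1 with median-ratio scaling, for *Hk3* 2.37 with TPM, while liver passed WAT with median-ratio scaling, and for *Slc2a2* 1.63 and 3.26.

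**Figure D1:**
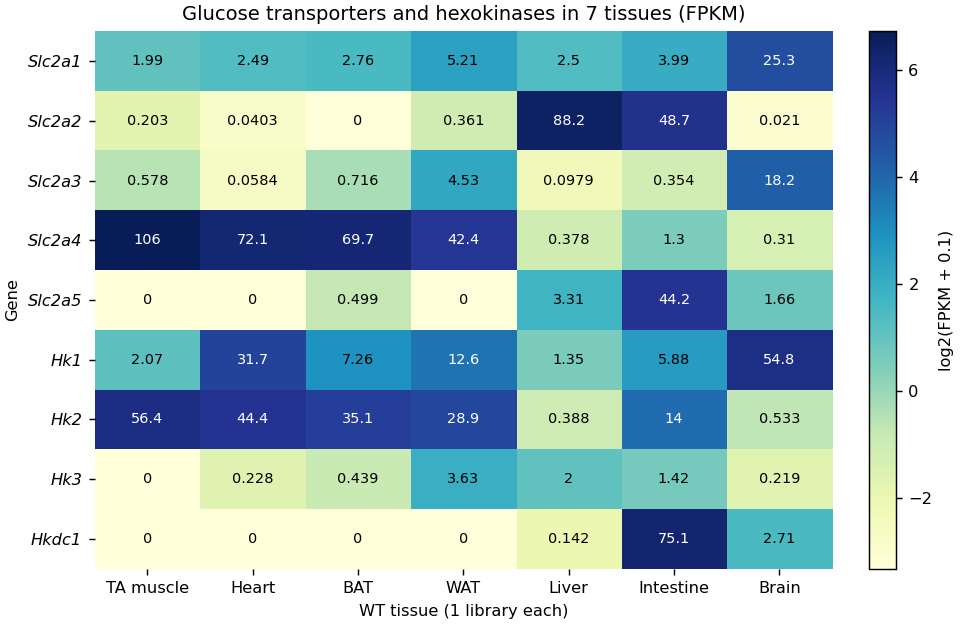
Levels of the 9 members in 7 tissues of WT mice, 1 library each. Rows are genes, columns tissues, printed values are FPKM and the colour shows log2(FPKM + 0.1). *Slc2a4* and *Hk2* are high in the same 4 tissues (TA muscle, heart, BAT and WAT), *Slc2a1*, *Slc2a3* and *Hk1* are highest in brain, and *Slc2a5* and *Hkdc1* are highest in intestine.

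Some pairs of members had similar patterns over the tissues. On log2(FPKM + 1) over the 7 libraries, Pearson's r was 0.91 between *Slc2a4* and *Hk2*, 0.93 between *Slc2a5* and *Hkdc1* and 0.93 between *Slc2a1* and *Slc2a3*. These were the highest values among all pairs of the members. *Slc2a5* and *Hkdc1* share intestine as their highest tissue, and *Slc2a1* and *Slc2a3* share brain. A single such tissue can carry an r over 7 points. *Hk1* and *Hk2* had an r of -0.06. These are descriptions over 7 points that share their libraries, with no test. Among 12313 protein-coding genes with a highest FPKM of at least 5, the pattern nearest to *Hk2* was that of *Trip10* (r = 0.978, highest in TA muscle) and the nearest to *Slc2a4* that of *Hspb1* (r = 0.965, highest in heart). *Crat*, carnitine acetyltransferase, was among the 3 nearest genes of both, with an r of 0.951 to *Hk2* and 0.963 to *Slc2a4*. *Appl2* was nearest to *Hk1* (r = 0.975), *Prr7* to *Slc2a1* (r = 0.997), *Gfra2* to *Slc2a3* (r = 0.995), *Crb3* to *Slc2a5* (r = 0.986) and *Gpc4* to *Hk3* (r = 0.988). *Ces2a*, a liver carboxylesterase, had an r of 0.999 to *Slc2a2*.

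When the 4 hexokinases were taken as shares of their summed FPKM, 1 form held more than 50% of the sum in all 7 tissues. *Hk2* made up 96.5% in TA muscle, 82.0% in BAT, 64.1% in WAT and 58.2% in heart. *Hk1* made up 94.1% in brain and 41.5% in heart, and *Hkdc1* 77.9% in intestine. Liver held little of the 4, with a sum of 3.88 FPKM, of which *Hk3* made up 51.6% and *Hk1* 34.7%. Among the transporters, *Slc2a4* made up 97.4% in TA muscle, 96.5% in heart, 94.6% in BAT and 80.8% in WAT, and *Slc2a2* 93.3% in liver. Intestine was split between *Slc2a2* at 49.4% and *Slc2a5* at 44.8%, and brain between *Slc2a1* at 55.6% and *Slc2a3* at 40.0%.

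Among other genes of glucose entry and use, levels are given for 3. *Slc5a1*, the sodium-coupled transporter of the gut lumen, had 366 FPKM in intestine and at most 0.517 elsewhere. *G6pc*, the phosphatase that releases glucose, had 108 FPKM in liver and 5.08 in intestine. *Mlxipl*, the glucose-sensing transcription factor ChREBP, had 94.3 FPKM in liver, 75.2 in BAT, 55.3 in intestine and 41.4 in WAT.

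Promoter sequences are shown for *Hk2* and *Hk1*, the members that met the cutoff of the study in the iWAT comparison below, and for *Hkdc1* and *Slc2a5*, the members whose highest tissue stood furthest above the next. RefSeq (GRCm38.p6) gave a window from 250 bases before to 50 bases after a start site for 7 of 9 members, and 2 such windows for *Hk1*. Capitals mark GC boxes, GGGCGG on either strand, the letters bound by Sp1-type factors.
Hk2, chr6:82774405-82774704, minus strand: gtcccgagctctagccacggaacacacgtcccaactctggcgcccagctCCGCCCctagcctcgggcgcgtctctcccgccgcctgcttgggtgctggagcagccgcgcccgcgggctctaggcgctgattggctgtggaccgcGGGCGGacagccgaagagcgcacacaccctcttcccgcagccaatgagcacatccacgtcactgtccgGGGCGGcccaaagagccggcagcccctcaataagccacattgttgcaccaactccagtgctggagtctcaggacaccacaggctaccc
Hk1 first start site, chr10:62379859-62380158, minus strand: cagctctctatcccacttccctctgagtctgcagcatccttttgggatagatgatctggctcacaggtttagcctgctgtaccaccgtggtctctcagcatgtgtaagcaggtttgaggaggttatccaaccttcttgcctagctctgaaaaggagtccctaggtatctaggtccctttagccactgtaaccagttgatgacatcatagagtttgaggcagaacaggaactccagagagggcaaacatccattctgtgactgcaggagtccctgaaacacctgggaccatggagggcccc
Hk1 second start site, chr10:62340372-62340671, minus strand: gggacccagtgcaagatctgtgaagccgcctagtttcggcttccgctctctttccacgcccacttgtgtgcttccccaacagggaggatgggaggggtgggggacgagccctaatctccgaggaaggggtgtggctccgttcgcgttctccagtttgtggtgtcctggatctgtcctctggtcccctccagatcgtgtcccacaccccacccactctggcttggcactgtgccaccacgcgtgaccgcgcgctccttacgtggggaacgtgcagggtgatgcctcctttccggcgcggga
Hkdc1, chr10:62422408-62422707, minus strand: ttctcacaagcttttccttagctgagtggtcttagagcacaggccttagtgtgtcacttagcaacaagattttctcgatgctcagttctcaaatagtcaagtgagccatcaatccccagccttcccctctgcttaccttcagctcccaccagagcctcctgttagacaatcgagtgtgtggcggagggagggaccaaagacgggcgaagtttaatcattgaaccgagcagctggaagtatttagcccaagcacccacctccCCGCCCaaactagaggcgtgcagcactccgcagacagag
Slc2a5, chr4:150119094-150119393, plus strand: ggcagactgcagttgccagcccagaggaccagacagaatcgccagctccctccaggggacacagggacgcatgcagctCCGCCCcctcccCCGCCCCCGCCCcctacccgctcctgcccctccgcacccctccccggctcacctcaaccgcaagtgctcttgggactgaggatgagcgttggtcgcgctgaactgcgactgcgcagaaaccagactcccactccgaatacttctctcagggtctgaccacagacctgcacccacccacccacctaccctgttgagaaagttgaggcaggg
The *Hk2* window held 3 GC boxes, that of *Slc2a5* 3, that of *Hkdc1* 1 and both *Hk1* windows none, beside 35.7% of all 32851 promoter windows that hold at least 1. The *Hk2* window had 67.3% G and C with 25 CpG dinucleotides, the first *Hk1* window 51.3% with 1 and the second 63.3% with 20, beside medians of 52.7% and 7 over all windows. The letters TGACG, a part of the cAMP response element, occurred once in the *Hk2* window, 50 bases before the start site, and in 20.8% of all windows on either strand. The full element TGACGTCA, found in 1.79% of windows, and the E-box CACGTG, found in 7.15%, occurred in no window of a member. The TATA box letters TATAAA, found in 13.6%, occurred in that of *Slc2a1* alone among the members with a window. There they lay 28 bases after the start site and not before it. These are matches of letters and not sites of binding.

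On GRCm38, *Hk1* (ENSMUSG00000037012) and *Hkdc1* (ENSMUSG00000020080) lie beside each other on the minus strand of chromosome 10, from 62268855 to 62379908 and from 62383137 to 62422491. Brain, where *Hk1* was highest, had 2.71 FPKM of *Hkdc1*, and intestine, where *Hkdc1* was highest, had 5.88 FPKM of *Hk1*. *Hk2* (ENSMUSG00000000628) spans 82725025 to 82774454 on the minus strand of chromosome 6, and *Slc2a4* (ENSMUSG00000018566) 69942539 to 69948188 on the minus strand of chromosome 11. All 9 are annotated as protein-coding. Exons of *Hk3* overlap those of *Unc5a* on the opposite strand, those of *Hk1* overlap *Hk1os* and those of *Slc2a1* overlap *Gm12868*. Because strand was not used, reads of such a pair cannot be told apart. *Unc5a* had 3.46 to 6.32 FPKM in the iWAT libraries, above *Hk3* in 5 of 6, so the values of *Hk3* are uncertain, while *Hk1os* reached at most 0.583 FPKM in any library where it is listed and *Gm12868* is listed at 0.

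In iWAT of cold-exposed mice, *Hk2* was lower and *Hk1* higher in every MCK-Musclin library than in any WT library, while neither had an adjusted p under 0.05. *Hk2* had 38.7, 19.4 and 32.0 FPKM in WT libraries 1, 2 and 3 and 14.7, 15.2 and 13 in the MCK-Musclin libraries. All 3 MCK-Musclin values were below the lowest WT value, and WT library 2 stood nearest to them. Mean levels were 30.0 ± 9.80 FPKM for WT and 14.3 ± 1.19 for MCK-Musclin mice (SD, n = 3 per group), which is a ratio of 0.476. On log2(FPKM + 1) the difference was -0.97 ± 0.23 (SE; 95% interval -1.51 to -0.42), with an unadjusted p of 0.00379 and an adjusted p of 0.149 (limma, Benjamini-Hochberg over 12197 genes).

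*Hk1* went the other way, with 10.6, 8.91 and 10.1 FPKM in the WT libraries and 13.7, 15.5 and 15.3 in the MCK-Musclin libraries. All 3 MCK-Musclin values were above all 3 WT values. The means were 9.88 ± 0.872 and 14.8 ± 1 FPKM (SD, n = 3 per group), a ratio of 1.5. The difference was 0.54 ± 0.11 on log2(FPKM + 1) (SE; 95% interval 0.29 to 0.79), with an unadjusted p of 0.00121 and an adjusted p of 0.143 by limma. The ratio of *Hk2* to *Hk1* within a library, which no scaling of the library can move, came to 3.65, 2.18 and 3.16 in the WT libraries and to 1.08, 0.982 and 0.846 in the MCK-Musclin libraries. That these do not overlap follows from the values of the 2 genes and is no separate result.

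As shares of the summed hexokinase FPKM, *Hk2* held 62.5% to 74.3% in WT iWAT and 41.4% to 45.7% in MCK-Musclin iWAT. *Hk1* held 20.3% to 28.7% and 42.4% to 48.9%. The sum itself was 31.1 to 52.1 FPKM in WT mice and 31.3 to 34.4 in MCK-Musclin mice, and these ranges overlapped. *Hk3*, the form of blood cells, had 2.81, 2.73 and 2.70 FPKM in the WT libraries and 3.82, 3.72 and 3.01 in the MCK-Musclin libraries, again without overlap. Its difference was 0.27 on log2(FPKM + 1) (95% interval -0.01 to 0.54), with an unadjusted p of 0.0565 and an adjusted p of 0.314 (limma). Levels in bulk tissue cannot tell fewer cells of a type from less RNA per cell.

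**Figure D2:**
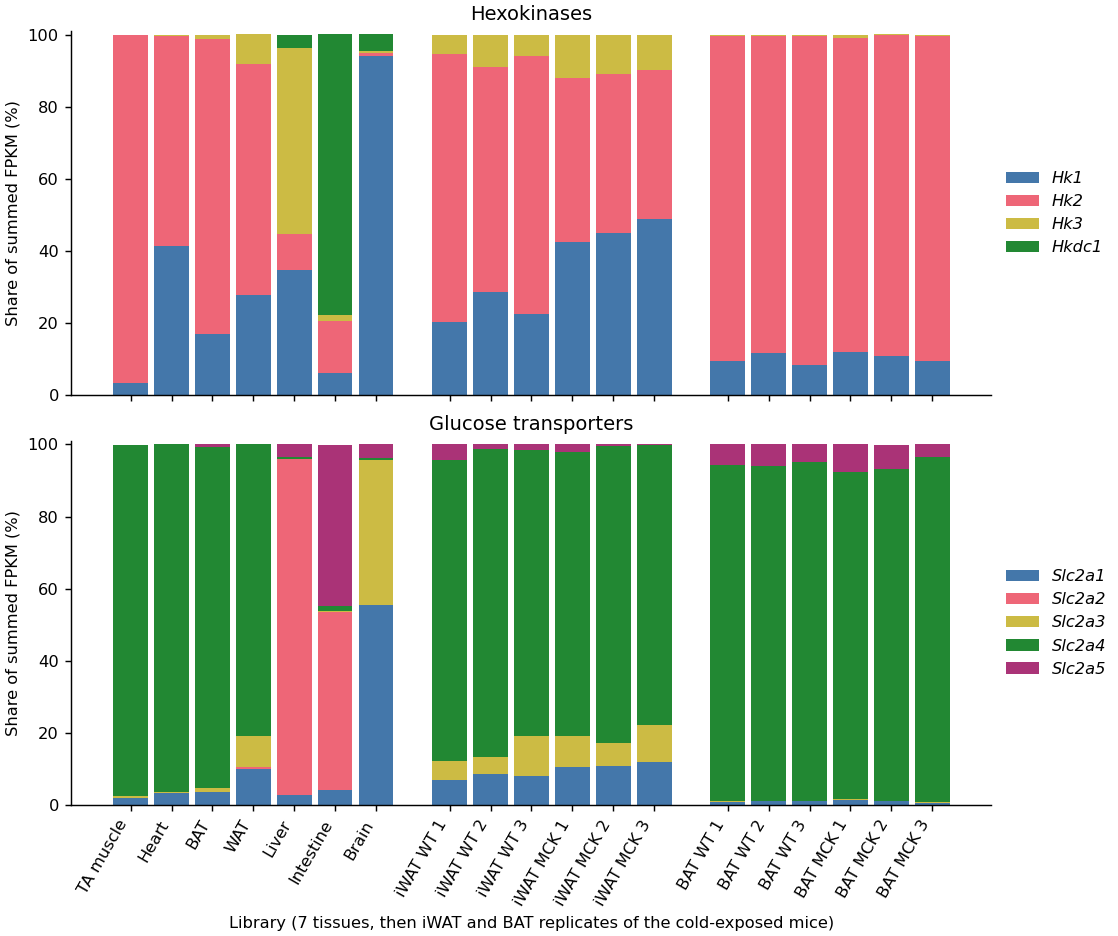
Share of each hexokinase (top) and each transporter (bottom) in the summed FPKM of its family, in percent, for 7 tissue libraries and the 12 libraries of cold-exposed mice. In iWAT the *Hk2* share is 62.5% to 74.3% in WT and 41.4% to 45.7% in MCK-Musclin (MCK) libraries, while in BAT it is 87.1% or more in all 6. *Hkdc1* and *Slc2a2* are not listed in the iWAT table and have no part in those bars.

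Of the 6 members tested in iWAT none had an adjusted p under 0.05, and none of the 12197 genes had (0% by limma), while 86 genes had one without WT library 1. At an unadjusted p under 0.05 there were 3 members, *Hk2* and *Slc2a4* lower (3.44% of all genes) and *Hk1* higher (13.1%), beside 2012 genes, 16.5%, in either direction. *Hk1* and *Hk2* met the cutoff of the study, which adds a log2 fold change beyond 0.5 to that p, as did 5.94% of all genes. The study applied its cutoffs to DESeq2 results. Here they were applied to limma results, so the counts are not the study's own. Groups did not overlap for 3 of the 6, *Hk1*, *Hk2* and *Hk3*, beside 23.3% of all genes tested (5.44% with MCK-Musclin lower and 17.9% with MCK-Musclin higher). By direction, 0.902% of all genes were lower at the cutoff and 5.04% were higher. The median difference was 0.14 over the 6 members and 0.06 over all genes. For a single gene, the smallest two-sided p of an exact permutation test with 3 libraries per group is 0.1.

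Of the transporters in iWAT, none met the cutoff of the study. *Slc2a4* had 50.8, 48.9 and 39.6 FPKM in the WT libraries and 35.2, 41.5 and 35.0 in the MCK-Musclin libraries, and the groups overlapped because MCK-Musclin library 2 exceeded WT library 3. Its difference was -0.31 ± 0.13 (SE; 95% interval -0.61 to -0.01), with an unadjusted p of 0.0451 and an adjusted p of 0.29 by limma. With the libraries centred on the general adipocyte markers the difference was -0.12, with an unadjusted p of 0.364. Its unadjusted p was also above 0.05 when 1 of 4 libraries was left out, at 0.134 without WT library 1, 0.122 without WT library 2, 0.12 without the library labelled MCK-Musclin replicate 1 (difference -0.27) and 0.124 without MCK-Musclin library 3.

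*Slc2a1*, the basal transporter, had 4.18, 4.83 and 3.96 FPKM in the WT libraries and 4.67, 5.42 and 5.35 in the MCK-Musclin libraries, which overlapped, with a difference of 0.21 (95% interval -0.06 to 0.48; adjusted p = 0.409, limma). *Slc2a3* had 3.14, 2.74 and 5.45 against 3.78, 3.34 and 4.57 FPKM, with a difference of 0.07 (95% interval -0.44 to 0.58; adjusted p = 0.902, limma). *Slc2a4* held 79.6% to 85.5% of the summed transporter FPKM in WT mice and 77.8% to 82.2% in MCK-Musclin mice. *Slc2a1* held 6.9% to 8.5% and 10.5% to 11.9%, ranges that did not meet. This share also moves with *Slc2a4*, which made up most of the sum, and the FPKM of *Slc2a1* overlapped. It is no separate result on *Slc2a1*.

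*Slc2a5* was low and uneven in iWAT, with 2.60, 0.716 and 0.701 FPKM in the WT libraries and 0.948, 0.244 and 0.0747 in the MCK-Musclin libraries. It failed the filter, a mean of at least 1 FPKM over the 6 libraries. Without that filter its difference was -0.67 (95% interval -1.47 to 0.12) with an adjusted p of 0.384 (limma), and the groups overlapped.

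**Figure D3:**
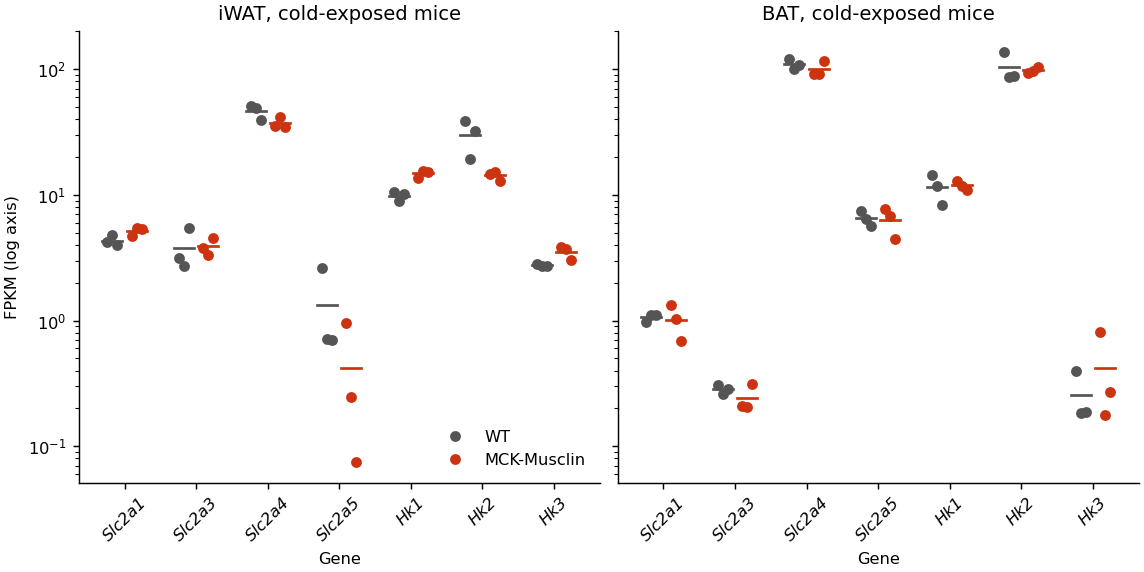
FPKM of 7 members in each library of iWAT (left) and BAT (right) from cold-exposed WT (grey) and MCK-Musclin (red) mice on a log axis, with points for libraries and a line for the mean of 3. In iWAT the 3 *Hk2* values of MCK-Musclin mice, 13 to 15.2, lie below the 3 of WT mice, 19.4 to 38.7, and the *Hk1* values lie above. In BAT the groups overlap for each member shown.

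Cell type markers moved between the same iWAT groups. Of 7 thermogenic adipocyte markers, 6 were lower in MCK-Musclin mice at an unadjusted p under 0.05, and their summed FPKM was 523 to 1008 in WT libraries and 88.6 to 583 in the MCK-Musclin libraries, with none of the 7 at 0 throughout. All 12 fast skeletal muscle markers had a lower mean on the log2 scale without 1 of them passing that threshold, and their sum ran from 11.4 to 4807 FPKM in the WT libraries and from 11.5 to 195 in the MCK-Musclin libraries. The general adipocyte markers summed to 16479 to 17771 FPKM in the WT libraries and 14854 to 16745 in the others, with 10 of 10 below 0 in the log2 difference and 1 of 10 lower at an unadjusted p under 0.05. The part of these cells in the difference of *Hk2* was not tested.

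WT library 1 and the library labelled MCK-Musclin replicate 1 had close sums of both lists, 523 and 583 FPKM of thermogenic markers and 11.4 and 11.5 FPKM of muscle markers, and their *Hk2* levels were 38.7 and 14.7 FPKM. WT library 2, with 816 FPKM of thermogenic and 858 of muscle markers, had 19.4 FPKM of *Hk2*. Each of these is 1 library, and no relation of *Hk2* to the sums was tested. Without WT library 3, which held 4807 FPKM of muscle markers, the difference of *Hk2* was -0.90 with an unadjusted p of 0.0153 and an adjusted p of 0.331 (limma). Without the library labelled MCK-Musclin replicate 1 it was -0.99 with an unadjusted p of 0.0113, that of *Hk1* was 0.60 with an unadjusted p of 0.00216, and that of *Hk3* was 0.22 with an unadjusted p of 0.159. Without WT library 2, the WT library lowest in *Hk2* and in *Hk1*, the differences were -1.25 for *Hk2* and 0.48 for *Hk1*, so *Hk1* no longer met the cutoff of 0.5.

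Markers of several white blood cell types were higher in the same iWAT group as *Hk1* and *Hk3*. Of 5 erythrocyte markers 0 passed an unadjusted p under 0.05, with sums of 1626 to 3418 FPKM in WT and 1720 to 3062 in MCK-Musclin iWAT. All 4 B cell markers and all 4 T cell markers were higher in MCK-Musclin iWAT at an unadjusted p under 0.05, as were 2 of 6 macrophage markers and 2 of the 4 neutrophil markers listed. The B cell markers summed to 109 to 211 FPKM in the WT libraries and 239 to 326 in the MCK-Musclin libraries, the T cell markers to 40.9 to 48.4 and 62.6 to 71.6, the macrophage markers to 498 to 538 and 533 to 741, and the neutrophil markers to 4.04 to 9.70 and 12.9 to 18.5. No listed marker was at 0 in every library. In BAT the B cell markers summed to 0.35 to 0.9 FPKM in the WT libraries and 0.322 to 0.465 in the others. Their part in the differences of *Hk1* and *Hk3* was not tested.

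**Figure D4:**
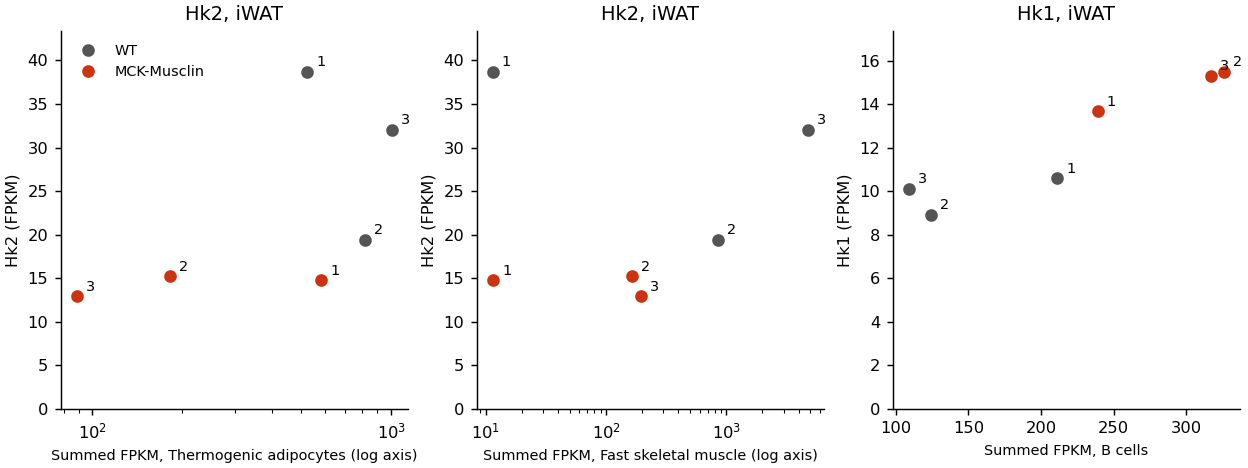
FPKM of *Hk2* against the summed FPKM of thermogenic adipocyte markers (left, log axis) and of fast skeletal muscle markers (middle, log axis), and FPKM of *Hk1* against the summed FPKM of B cell markers (right), in the 6 iWAT libraries, numbered by replicate. At close marker sums in the left and middle panels, WT library 1 and MCK-Musclin library 1 have 38.7 and 14.7 FPKM of *Hk2*. In the right panel the MCK-Musclin libraries are higher on both axes.

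Of 29 tested genes of the same pathway in iWAT, 4 had an unadjusted p under 0.05, which is 13.8% beside the 16.5% of all genes, and the lowest adjusted p among the 4 was 0.181. Of 15 genes of GLUT4 vesicle traffic, *Tbc1d1*, a Rab GTPase-activating protein that holds the vesicles back, was higher by 0.37, with an unadjusted p of 0.0098 and an adjusted p of 0.181 (limma). *Sort1*, the sorting receptor sortilin of those vesicles, was lower, with a log2 difference of -0.25, an unadjusted p of 0.0403 and an adjusted p of 0.279 (limma). *Mlxipl*, 1 of 4 genes of glucose sensing and transporter internalization, had 35.3, 23.3 and 25.5 FPKM in the WT libraries and 15.5, 18.7 and 20.5 in the MCK-Musclin libraries. Its difference was -0.58 without overlap, with an unadjusted p of 0.0118 and an adjusted p of 0.19 (limma). *Adpgk*, which phosphorylates glucose with ADP, and 1 of 3 tested genes of glucose phosphorylation beside the members, was higher by 0.28, with an unadjusted p of 0.0358 and an adjusted p of 0.269 (limma). None of 3 other facilitative transporters (*Slc2a8*, *Slc2a9* and *Slc2a13*) and none of 4 genes of the first steps from glucose 6-phosphate had an unadjusted p under 0.05, although *Slc2a8* had groups apart with a difference of -0.34. Groups were apart for *Tbc1d1*, *Rab8a*, *Sort1*, *Stx4a*, *Adpgk* and *Vdac1* as well, beside 23.3% of all genes.

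In BAT of the same kind of mice, the members did not differ between genotypes beyond the spread of the libraries. *Hk2* had 138, 86.7 and 88.7 FPKM in the WT libraries and 93.2, 97.5 and 104 in the MCK-Musclin libraries, so the single high value belonged to a WT mouse and the groups overlapped. Its difference was -0.06 (95% interval -0.47 to 0.36), with an adjusted p of 0.991 (limma). *Hk1* had 14.5, 11.7 and 8.28 against 12.9, 11.8 and 11 FPKM, with a difference of 0.08 (95% interval -0.36 to 0.51; adjusted p = 0.988, limma). The ratio of *Hk2* to *Hk1* was 7.43 to 10.7 in WT and 7.19 to 9.41 in MCK-Musclin BAT, and *Hk2* held 88.0% to 91.3% and 87.1% to 90.2% of the hexokinase sum.

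*Slc2a4* had 120, 100 and 109 FPKM in WT BAT and 91.6, 91.8 and 116 in MCK-Musclin BAT, with a difference of -0.14 (95% interval -0.42 to 0.14; adjusted p = 0.968, limma). *Slc2a5* had 7.49, 6.45 and 5.66 against 7.68, 6.81 and 4.46 FPKM, with a difference of -0.06 (95% interval -0.51 to 0.38; adjusted p = 0.99, limma). *Slc2a1* was near 1 FPKM, with 0.979, 1.10 and 1.11 against 1.32, 1.04 and 0.684, and a difference of -0.05 (95% interval -0.41 to 0.32; adjusted p = 0.991, limma). These intervals do not show the groups to be alike: for *Hk2* they leave room for a log2 difference of -0.47.

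None of the 5 members tested in BAT met the cutoff the study used there, a log2 fold change beyond 0.3 at an unadjusted p under 0.05, which 2.15% of 10893 genes met with MCK-Musclin lower and 1.85% with MCK-Musclin higher. None had groups apart, as 5.63% of genes had with MCK-Musclin lower and 4.38% with MCK-Musclin higher. The median difference was -0.055 over the 5 members and -0.0084 over all genes. *Ostn* alone had an adjusted p under 0.05 (0.00918% of genes), and 4.89% had an unadjusted one. *Slc2a2*, *Slc2a3*, *Hk3* and *Hkdc1* failed the filter in BAT. *Slc2a3* had 0.304, 0.261 and 0.285 FPKM in WT and 0.210, 0.206 and 0.312 in the MCK-Musclin libraries, and *Hk3* 0.398, 0.182 and 0.189 against 0.805, 0.177 and 0.272. *Hkdc1* is listed at 0 in all 6 libraries, and *Slc2a2* at 0 in all but MCK-Musclin library 3, with 0.00929 FPKM.

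Of 29 pathway genes tested in BAT, 1 had an unadjusted p under 0.05, which is 3.45% beside 4.89% of all genes. *Arrdc4*, an arrestin that takes glucose transporters off the cell surface, had 2.61, 2.67 and 2.83 FPKM in the WT libraries and 1.90, 2.1 and 1.98 in the MCK-Musclin libraries, a difference of -0.31 without overlap, with an unadjusted p of 0.0264 and an adjusted p of 0.968 (limma). None of 15 genes of GLUT4 vesicle traffic and none of 6 tested genes of the first steps from glucose 6-phosphate had an unadjusted p under 0.05. Among them, *Rab14*, *Stxbp3* and *G6pc3* also had groups apart, as 5.63% of all genes had with MCK-Musclin lower and 4.38% with MCK-Musclin higher. Of the sodium-coupled transporters none is listed in iWAT and none passed the filter in BAT. Among cell type markers in BAT, 11 of 12 fast skeletal muscle markers were higher in MCK-Musclin mice at an unadjusted p under 0.05, with sums of 540 to 852 FPKM in WT and 890 to 1917 in the MCK-Musclin libraries, none at 0 throughout. *Slc2a4* and *Hk2*, which were highest in TA muscle among the 7 tissues, had differences of -0.14 and -0.06 in these libraries. The muscle sums are small beside the 145776 FPKM of TA muscle, so these differences say little on muscle RNA, whose part was not tested. Erythrocyte markers were higher in MCK-Musclin BAT for 4 of 5, with sums of 1553 to 1978 and 2293 to 2388 FPKM, and endothelial markers lower for 1 of 7, with sums of 140 to 143 and 128 to 129 FPKM. In iWAT none of either list passed the unadjusted threshold. Thermogenic markers summed to 8176 to 9588 and 7970 to 9278 FPKM in BAT, with none of 7 past that threshold.

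**Figure D5:**
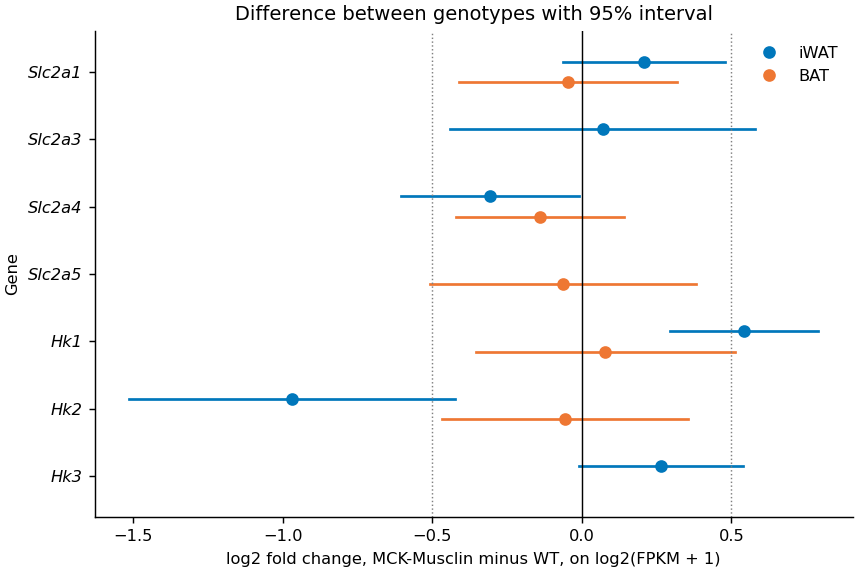
Difference of log2(FPKM + 1) between MCK-Musclin and WT mice for the members that passed the filter in iWAT (blue, 6 members) and BAT (orange, 5 members), with 95% intervals from limma, and dotted lines at a log2 fold change of 0.5 either way. The iWAT intervals of *Hk2*, -1.51 to -0.42, and *Hk1*, 0.29 to 0.79, leave out 0, as does that of *Slc2a4*, while all BAT intervals hold 0.

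The genotype difference of *Hk2* was compared between the depots in 1 model of the 12 libraries, over 11645 genes. The difference in iWAT minus that in BAT was -0.91 ± 0.32 (SE; 95% interval -1.61 to -0.22), with an unadjusted p of 0.0144 and an adjusted p of 0.32 (limma), beside 2.75% of genes with an unadjusted p under 0.05 in that direction and 11.8% in either. *Hk2* was the only 1 of 7 members tested with an unadjusted p under 0.05, and none of the 7 had an adjusted p under 0.05 (0.00859% of genes, limma). For *Hk1* the value was 0.46 (95% interval -0.03 to 0.95), with an unadjusted p of 0.0615 and an adjusted p of 0.448 (limma). *Slc2a5* came to -0.61 (95% interval -1.54 to 0.33), *Slc2a1* to 0.26, *Slc2a4* to -0.17, *Slc2a3* to 0.12 and *Hk3* to 0.11, with unadjusted p-values from 0.182 to 0.65 (limma). Genes entered here by their mean over all 12 libraries. *Slc2a5*, which failed the filter in iWAT, entered by its BAT levels, and *Slc2a3* and *Hk3*, which failed it in BAT, by their iWAT levels. A difference in the low depot is understated on this scale, so their values say little on a difference between depots. The median over the 7 members, these genes included, was 0.11 and over all genes 0.06. RNA of iWAT and of BAT was extracted by different methods, and this cannot be told apart from the depot here.

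Set side by side, cold-exposed WT BAT and the BAT library of the 7 tissues held unequal levels of several members. *Hk2* had 86.7 to 138 FPKM in the 3 cold-exposed WT libraries and 35.1 in the tissue library, *Slc2a4* 100 to 120 and 69.7, and *Slc2a5* 5.66 to 7.49 and 0.499. *Slc2a1* had 0.979 to 1.11 FPKM and 2.76, and *Slc2a3* 0.261 to 0.304 and 0.716. *Hk1* at 8.28 to 14.5 and 7.26 FPKM was closer. In cold-exposed WT iWAT, *Hk2* had 19.4 to 38.7 FPKM beside 28.9 in the WAT library, *Hk1* 8.91 to 10.6 beside 12.6 and *Slc2a4* 39.6 to 50.8 beside 42.4. These tables were made separately with 1 library on one side, so cold, age, depot and table cannot be told apart, and no test was run.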

How the data were processed

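RNA-Seq tables of 7 tissues, iWAT and BAT were used, 19 libraries in all, and the values are FPKM per gene and library as the authors deposited them. Per the labels and the study's methods, poly(A) RNA was reverse-transcribed with random primers, and reads were filtered with fastp and Bowtie2 and aligned with HISAT2 (version 2.1.0 in the submitters' processing notes) to mm10 (GRCm38) without strand. The processing notes name Cuffdiff and the methods StringTie for the FPKM. The authors also deposited for iWAT the log2 fold change, p-value and FDR of their own comparison and a mean normalized signal per group, and none of these was used. WAT and iWAT RNA was extracted with a commercial kit and RNA of the other tissues with TRIzol. The 287 repeated lines in each of the tissue and BAT tables were used once, and 0 columns of per-sample values were left unused. No 2 libraries held the same values.

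The members and all gene lists were chosen with earlier results of these data known. All members, *Ostn*, the genes of 6 pathway lists and the 3 genes nearest in pattern to each member could be named. 1 item of the plan is not reported here, and shares of the hexokinases are of the 4 members. Lists of 13 cell types or tissues served as markers.

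Groups came from the labels, with 3 libraries each, and p-values measure the spread between these libraries only. Within a table, log2(FPKM + 1) was compared by the empirical Bayes test of limma 3.58.1 with a mean-variance trend (R 4.3.3). Genes entered with an average of 1 FPKM or more, with Benjamini-Hochberg adjustment of p-values over all genes tested. A fold change on this scale understates that of low genes. The difference between depots is the interaction of genotype and tissue over genes of both tables with an average of at least 1 FPKM over the 12 libraries. Tables were read and described with Python 3.11.15, pandas 2.3.3 and numpy 2.4.6, and figures drawn with matplotlib 3.10.9. Read depth is not given. The spacing of low values put it, relative to 1 library of each table, between 0.919 and 1.052 in the 7 tissues and between 0.89 and 1.113 in BAT, and it is unknown in iWAT. No interval or detection limit was computed from reads.

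The limma step was tested on simulated data before use. Positions and exon overlaps came from GENCODE M21 (GRCm38), and promoters from RefSeq (GRCm38.p6). Alternatives were pseudocounts of 0.1 and 0.01, filters at 0 and at 5 FPKM, rescaling to TPM or by median ratios, centring on the general adipocyte markers, limma without the trend, a replicate block, and leaving out each library.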

Additional observations from a re-analysis of the deposited data

Results flagged for a closer look

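The difference of the genotype effect on *Hk2* between depots was marked because the test of that difference itself had an unadjusted p of 0.0144. In MCK-Musclin minus WT mice the log2 difference was -0.97 in iWAT and -0.06 in BAT, and the first minus the second was -0.914. The 3 MCK-Musclin libraries were below all 3 WT libraries in iWAT and overlapped them in BAT. The adjusted p was 0.32 (limma, Benjamini-Hochberg over 11645 genes), so the result fails the correction. Over 21 alternatives it stayed between -1.19 and -0.71, with unadjusted p-values from 0.000574 to 0.0383 and adjusted p-values from 0.275 to 0.52. Thermogenic markers differed between the depots in the same direction, with 6 of 7 at an unadjusted p under 0.05, and their part in the value was not tested. Groups of 3 are too small for a check of single outlying libraries.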

How the results depend on the processing

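Read depth is unknown, so what it limits could not be assessed. In iWAT, *Hk2* kept its direction and an unadjusted p under 0.05 in all 15 alternatives, between -1.25 and -0.77, and *Hk1* between 0.47 and 0.73, falling short of the cutoff of 0.5 with median-ratio scaling (0.47) and without WT replicate 2 (0.48). The members at the study's cutoff in iWAT numbered 2, and 1 with median-ratio scaling and 1 to 2 when a library was left out. With centring on general adipocyte markers *Hk1* had an adjusted p of 0.0436 (limma; 0.0436 to 0.372 over its alternatives), and 757 genes had one under 0.05 where the FPKM as deposited gave 0 and the libraries left out in turn gave 0 to 86 (86 without WT replicate 1); this centring moved the median of all genes from 0.06 to 0.25 in iWAT. With limma at the thresholds of the study, 110 genes were lower and 615 higher in iWAT, which are not the study's own counts. Of these calls 84.8% were higher, against 69.5% under median-ratio scaling and 98.2% under centring. In BAT 46.3% were higher, against 77.1% under centring. In BAT the number of members at the cutoff was 0 in every alternative run. For the difference between depots, 1 member had an unadjusted p under 0.05, and 2 under centring, with the replicate block and without BAT WT replicate 3, with a range of 1 to 2 over the libraries left out. Of all genes, 1 had an adjusted p under 0.05 for this difference, and 80 without iWAT WT replicate 1 (limma).

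Reversals were of members with no called difference. Under centring, BAT values turned to 0.012 for *Hk2*, 0.021 for *Slc2a1* and 0.005 for *Slc2a5*. With 1 library left out, BAT values ran from -0.172 to 0.161 for *Hk2* (above 0 without WT replicate 1), -0.12 to 0.25 for *Hk1* (below 0 without WT replicate 3), -0.077 to 0.076 for *Slc2a1* and -0.199 to 0.135 for *Slc2a5* (both highest without MCK-Musclin replicate 3). In iWAT *Slc2a3* ran from -0.086 (without WT replicate 2) to 0.307. For the difference between depots *Hk3* came to -0.14 and -0.062 with pseudocounts of 0.01 and 0.1 and ran from -0.009 to 0.299, and *Slc2a3* from -0.039 to 0.354. The cause was not tested.

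Whether replicate numbers pair the samples could not be settled from these values. Same-numbered WT and MCK-Musclin iWAT libraries had correlations of their deviations of 0.228, 0.065 and 0.099. Differently numbered ones had -0.17 to 0.068. In BAT these were -0.099, -0.001 and 0.011 against -0.09 to 0.082. Same-numbered iWAT and BAT libraries had 0.143, 0.081 and -0.011 in WT mice, against -0.15 to 0.1 for different numbers. In MCK-Musclin mice they had -0.019, 0.107 and 0.052, against -0.128 to 0.069. With the replicate block, *Hk2* in iWAT kept -0.97 with an unadjusted p of 0.00512 and *Hk1* 0.54 with 0.00507, the members at the cutoff stayed 2 in iWAT and 0 in BAT, and adjusted p-values were 0.225 for both genes (limma). Over the 7 tissues, members more than 2 times above the next tissue numbered 4, and 6 with TPM and 5 with median-ratio scaling.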
